A study of Mus musculus with 6 samples.

Results

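Kinesins are the motor proteins that use ATP to move along or to take apart microtubules. The 39 kinesin genes described here were chosen by symbol from the gene count table, and a gene was kept when at least 3 of the 6 samples held 10 or more counts, which all 39 did, out of 56748 gene identifiers in the table. They were sorted by their known roles into 12 mitotic kinesins, 15 transport kinesins and 12 other kinesins. Earlier results of these data were known when the classes were drawn. RNA came from wildtype NMRI mouse embryos at E12.5, whose ureters were dissected and cultured for 18 h on membrane supports with 15 mM lithium chloride (LiCl) or with water alone as the control, 3 samples per group. LiCl inhibits the kinase GSK3B and was used in the study as an activator of canonical WNT signaling. The libraries were poly-A selected and made from whole explants, so ureteric epithelium and mesenchyme were measured together, and the number of ureters per sample is not given in the sources used here.

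The family serves quite different processes. Mitotic kinesins build the spindle, move chromosomes and close the cell bridge at cytokinesis, and their transcripts are known to accumulate in G2 and M phase and to fall when cells leave the cycle. Transport kinesins carry vesicles, organelles, RNAs and ciliary components along microtubules in dividing and non-dividing cells alike. Several of the other kinesins have roles in cilia, in the organization of microtubule ends or in signaling, and Kif26b is known for its need in the mesenchyme around the ureteric bud during kidney development.

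All 12 mitotic kinesins had more transcript in LiCl-treated ureters than in controls, by 2.12-fold (Kif15) to 3.33-fold (Kif18b), and no transport kinesin reached a 2-fold difference in either direction. A gene was called when edgeR's quasi-likelihood test gave a Benjamini-Hochberg adjusted p under 0.05 over all 18188 genes tested and the log2 fold change (LiCl against control) lay above 1 or below -1. By this rule 12 of 12 mitotic kinesins were called higher, against 2.74% of all genes tested, and 0 of 15 transport and 1 of 12 other kinesins (Kif9) were called higher. With Kif2a and Kif24 counted as mitotic, 12 of 14 were called higher. No kinesin was called lower, against 4.59% of all genes tested. The median log2 fold change was 1.42 over the mitotic, -0.07 over the transport and -0.12 over the other kinesins, and -0.01 over all genes tested. The mitotic median exceeded the transport median by 1.49, and the lowest mitotic kinesin still lay 0.88 above the highest transport kinesin on the log2 scale. Members of a class were not treated as replicates, so no test was made on these medians.

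**Figure D1:**
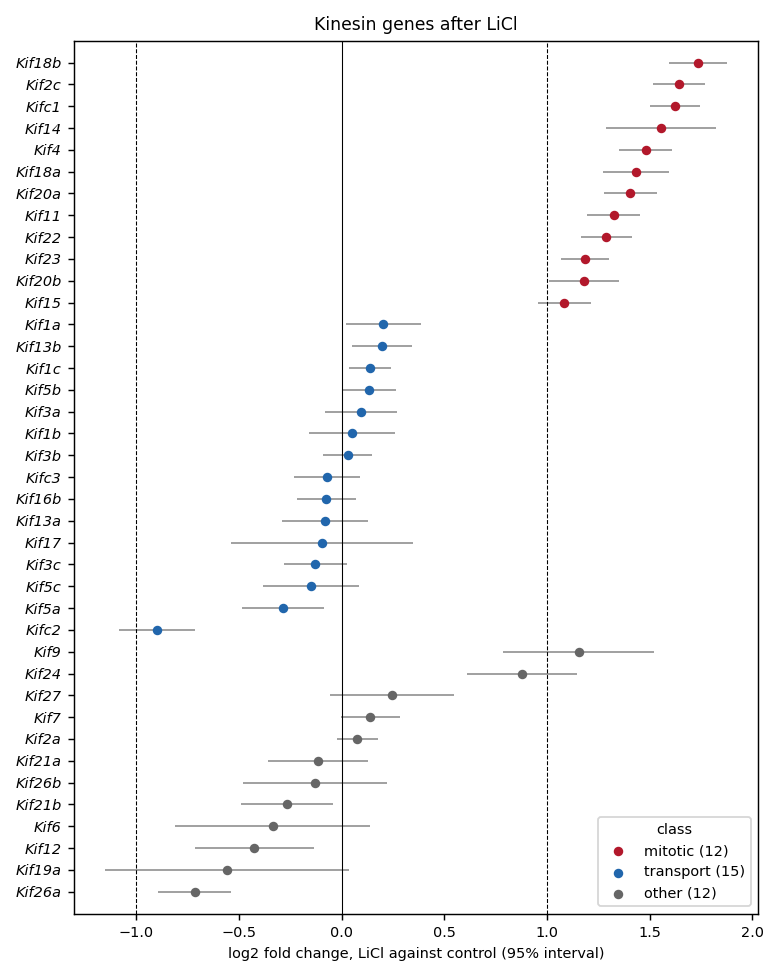
The plot shows the log2 fold change (LiCl against control) of each of the 39 kinesin genes as a point with its 95% interval from edgeR, coloured by class, with dashed lines at -1 and 1. The 12 mitotic kinesins lie between 1.08 and 1.74, while the 15 transport kinesins lie between -0.90 and 0.20.

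The motors that set up the bipolar spindle rose together. Levels are given in CPM, the counts of a gene scaled to a common library size with edgeR's TMM factors, in the order control 1, 2, 3 and LiCl 1, 2, 3. Kif11 (ENSMUSG00000012443), the kinesin-5 motor that slides antiparallel microtubules apart to separate the poles, was measured at 58.9, 60.9 and 62.6 CPM in controls and at 143, 162 and 152 CPM after LiCl. Kif15 (ENSMUSG00000036768), a kinesin-12 motor that helps to keep the spindle bipolar, had 39, 39.5 and 44.1 CPM and then 86.5, 86.5 and 87.0 CPM. Kifc1 (ENSMUSG00000079553), the minus-end-directed kinesin-14 that focuses the poles, had 30.9, 32.1 and 32.7 CPM and then 103, 94.7 and 96.8 CPM. Each LiCl sample lay above each control sample for all 3 genes. The log2 fold changes were 1.32 (SE 0.06) for Kif11, 1.08 (SE 0.06) for Kif15 and 1.62 (SE 0.05) for Kifc1, with edgeR adjusted p of 5.5e-07, 1.6e-06 and 2.9e-07. Kif15 had the smallest difference in the class, and its 95% interval of 0.96 to 1.21 reached below the threshold of 1. Kifc1 has a near-identical copy, Kifc5b, which moved the same way (log2 fold change 1.82, SE 0.07, edgeR adjusted p = 4e-07), so how the reads divide between these genes is uncertain.

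Kinesins that act on chromosomes and on microtubule ends included Kif18b and Kif2c, which had the highest fitted values among the 39 genes, Kif2c by less than its SE over Kifc1. Kif18b (ENSMUSG00000051378), a kinesin-8 that shortens astral microtubules, rose from 21.4, 22.1 and 24.4 CPM in controls to 78.2, 73.2 and 75.1 CPM after LiCl. Kif2c (ENSMUSG00000028678), also called MCAK, the kinesin-13 that takes microtubules apart at centromeres and corrects faulty attachments, rose from 32.4, 36.0 and 36.2 CPM to 111, 108 and 108 CPM. Kif18a (ENSMUSG00000027115), a kinesin-8 that dampens chromosome movements at the metaphase plate, went from 11.4, 11.9 and 10.9 CPM to 29.9, 32.7 and 29.9 CPM. For these 3 genes the gap between the groups was many times the range within a group. Their log2 fold changes were 1.74 (SE 0.06), 1.64 (SE 0.06) and 1.43 (SE 0.07), with edgeR adjusted p of 3.2e-07, 3.2e-07 and 1.2e-06. The chromokinesins bind chromosome arms. Kif4 (ENSMUSG00000034311) was measured at 33.1, 33.7 and 33.6 CPM in controls and at 87.0, 97.4 and 95.9 CPM after LiCl, a log2 fold change of 1.48 (SE 0.06, edgeR adjusted p = 3.3e-07). Kif22 (ENSMUSG00000030677), which pushes chromosome arms away from the poles, had 38.6, 43.5 and 41.3 CPM and then 100, 99.5 and 102 CPM, a log2 fold change of 1.29 (SE 0.06, edgeR adjusted p = 5.3e-07). The groups of both chromokinesins stood clear of each other in every sample.

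The cytokinesis motors were higher after LiCl as well. Kif23 (ENSMUSG00000032254), the motor of the centralspindlin complex, had 49, 46.3 and 47.9 CPM in controls and 103, 113 and 110 CPM after LiCl. Kif20a (ENSMUSG00000003779), which carries the chromosomal passenger complex to the central spindle, had 41.6, 43.5 and 45.5 CPM and then 110, 121 and 116 CPM. Kif20b (ENSMUSG00000024795), needed for the end of cytokinesis, had 37.9, 34.7 and 38.6 CPM and then 77.1, 92.5 and 82.4 CPM. Again no LiCl sample overlapped the controls, and the log2 fold changes were 1.19 (SE 0.05), 1.41 (SE 0.06) and 1.18 (SE 0.08), with edgeR adjusted p of 6.2e-07, 4.3e-07 and 4.8e-06. Kif14 (ENSMUSG00000041498), which brings citron kinase to the midbody, was the most variable mitotic kinesin in both groups, with 17.4, 14 and 18.5 CPM in controls and 42.6, 55.5 and 48.8 CPM after LiCl. Its log2 fold change was 1.56 with the largest SE of the class, 0.12 (edgeR adjusted p = 1.5e-05).

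Because the explants were measured in bulk, more cycling cells and more transcript per cycling cell cannot be told apart, and for genes that fell neither can fewer cells of a type and less RNA per cell. Nothing in the sources says that the samples of a group came from separate litters or cultures, so the p-values measure the spread between these samples, which may be technical. Permuting the labels of 3 control and 3 LiCl samples exactly cannot give a p below 0.1, so only the model across all genes was used. On log2(FPKM + 1), a scale that understates the change of low genes, limma gave Kif15 a log2 difference of 0.93 and Kif18a one of 0.95, both under the threshold of 1. When edgeR's glmTreat tested for a log2 fold change above 1, Kif15 (adjusted p = 0.677) and Kif20b (adjusted p = 0.187) were no longer called. Exons of Kif20a, Kif4, Kif18a and Kif22 overlap genes on the opposite strand (Cdc23, Pdzd11, Mettl15 and Gm31749), whose own log2 fold changes were 0.25, 0.06, 0.25 and 1.05, and the part of their reads in the 4 kinesins was not tested.

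Promoter sequences are shown for the 3 mitotic kinesins with the largest log2 fold changes and, for comparison, for Kif1c, the transport kinesin with the highest level per length. Cell cycle genes with peak expression in G2 and M phase are known to carry CHR elements (cell cycle genes homology region), often with CCAAT boxes a short way upstream, which are bound by the LIN54 subunit of the DREAM and MuvB complexes and by NF-Y. The sequences are from RefSeq for GRCm38.p6, which is not the build of the counts, and run 5′ to 3′ on the gene's strand from 250 bases before the annotated start through the first 30 bases after it. Capitals mark the CCAAT box, which reads ATTGG when it lies on the other strand. They also mark the CHR form TTTGAA, which then reads TTCAAA, and the CHR form TTCGAA, which is the same on both strands. Kif18b lies at chr11:102925095-102925374 on the minus strand, Kif2c at chr4:117178743-117179022 on the minus strand, Kifc1 at chr17:33890604-33890883 on the minus strand and Kif1c at chr11:70700298-70700577 on the plus strand. The windows of Kif18b, Kifc1 and Kif1c end within an annotated transcript of their gene. The Kif2c start lies 3852 bases inside the span of the gene, and no annotated GENCODE transcript of Kif2c holds the bases that follow it.
Kif18b: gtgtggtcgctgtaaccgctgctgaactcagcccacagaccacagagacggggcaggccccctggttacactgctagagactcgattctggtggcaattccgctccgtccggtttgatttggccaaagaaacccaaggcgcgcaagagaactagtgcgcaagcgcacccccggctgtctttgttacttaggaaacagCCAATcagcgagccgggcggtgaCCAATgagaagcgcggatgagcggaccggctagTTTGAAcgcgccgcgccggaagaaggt
Kif2c: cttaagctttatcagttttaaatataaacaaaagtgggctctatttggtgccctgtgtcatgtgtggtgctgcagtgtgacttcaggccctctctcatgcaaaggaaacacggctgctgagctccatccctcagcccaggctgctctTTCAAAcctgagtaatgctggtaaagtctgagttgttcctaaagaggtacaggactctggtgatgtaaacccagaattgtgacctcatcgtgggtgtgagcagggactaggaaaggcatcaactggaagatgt
Kifc1: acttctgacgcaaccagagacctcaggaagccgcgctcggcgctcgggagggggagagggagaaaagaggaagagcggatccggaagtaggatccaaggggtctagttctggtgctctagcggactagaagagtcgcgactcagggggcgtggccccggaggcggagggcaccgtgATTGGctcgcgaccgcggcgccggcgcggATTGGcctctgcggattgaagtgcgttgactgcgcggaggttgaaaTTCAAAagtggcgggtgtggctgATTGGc
Kif1c: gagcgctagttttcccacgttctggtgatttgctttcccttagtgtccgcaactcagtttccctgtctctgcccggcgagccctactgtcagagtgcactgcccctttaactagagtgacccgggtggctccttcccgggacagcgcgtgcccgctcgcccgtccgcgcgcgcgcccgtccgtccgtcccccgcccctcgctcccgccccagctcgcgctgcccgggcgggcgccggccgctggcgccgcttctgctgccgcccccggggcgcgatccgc

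The Kif18b window held 2 CCAAT boxes, beginning at bases -53 and -30 counted from the first transcribed base as 0, and a CHR form at base 3. The Kifc1 window had its CHR form at base 1 with CCAAT boxes at bases -74, -45 and 24, and the Kif2c window had a CHR form at base -103 and no CCAAT box. Neither motif occurred in the window of Kif1c. Of the 39 kinesins, 31 had a RefSeq promoter, in windows of 300 bases (250 before and 50 after the start), and Kif5a, Kif5b, Kif13b, Kif19a, Kif20a, Kif21b, Kifc2 and Kifc3 were without one. A CHR form on either strand was present in 10 of 11 mitotic kinesins (90.9%, Kif18a being the exception), 1 of 10 transport kinesins (10%, Kif1a) and 3 of 10 other kinesins (30%, Kif24, Kif26b and Kif27). The share was 16.3% among the 12183 tested genes with a promoter and 21.7% among all 27025 genes of the table. CCAAT alone separated the classes less, with 7 of 11 mitotic, 3 of 10 transport and 4 of 10 other kinesins against 42.1% of the tested genes. Both motifs together were found in 7 of 11 mitotic (63.6%), 0 of 10 transport and 3 of 10 other kinesins (30%), against 7.98% of the tested genes, and in no kinesin window did a CCAAT match share a base with a CHR match. Of the 35 windows of the 31 kinesins, 29 had bases after the start that lie in a GENCODE transcript of the gene. Kif2c, Kif11, Kif23 and Kif5c had no window that did. Among the other kinesins the windows went from 12 to 11, with all 10 genes kept. With only the 29 windows, a CHR form was present in 7 of 8 mitotic (87.5%), 1 of 9 transport (11.1%) and 3 of 10 other kinesins. These are matches of letters in a window, with no measurement of binding, and no test was made on them.

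**Figure D2:**
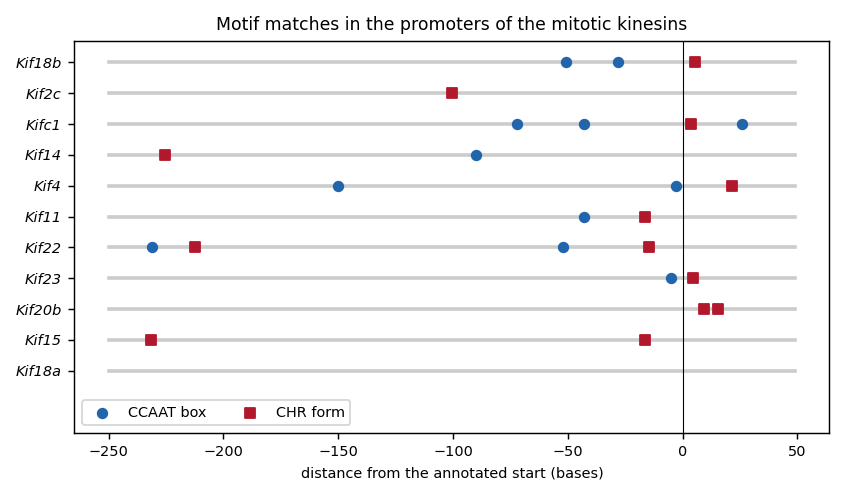
The plot marks the centres of CCAAT boxes (blue circles) and CHR forms (red squares) along the 300-base promoter windows of 11 mitotic kinesins, with the distance from the annotated start in bases on the x axis. All windows except that of Kif18a hold a CHR form, in 8 of the 11 within 25 bases of the start. Kif11 and Kif23 are among these 8, although the bases after their starts lie in no GENCODE transcript of the gene. The share of all genes with a CHR form this near the start was not counted.

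Levels between genes were compared per transcript length, with the deposited FPKM values. In control ureters the 4 highest kinesins were Kif12 (39.2 FPKM ± 5.14, SD, n = 3), Kif26b (30.1 ± 4.49), Kif1c (28.4 ± 0.50) and Kif5b (28.1 ± 1.55), of which the last 3 did not differ beyond their spread. None of the 10 highest kinesins in controls was mitotic. After LiCl the 4 highest were Kif1c (31.7 FPKM ± 1.20), Kif5b (31.2 ± 1.53), Kif12 (29.5 ± 5.62) and Kifc1 (28.8 ± 1.33), and 5 of the 10 highest were mitotic (Kifc1, Kif20a, Kif2c, Kif18b and Kif22). The 5 lowest kinesins in both groups were Kif6, Kif19a, Kif9, Kif17 and Kif27, each under 1 FPKM on average.

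**Figure D3:**
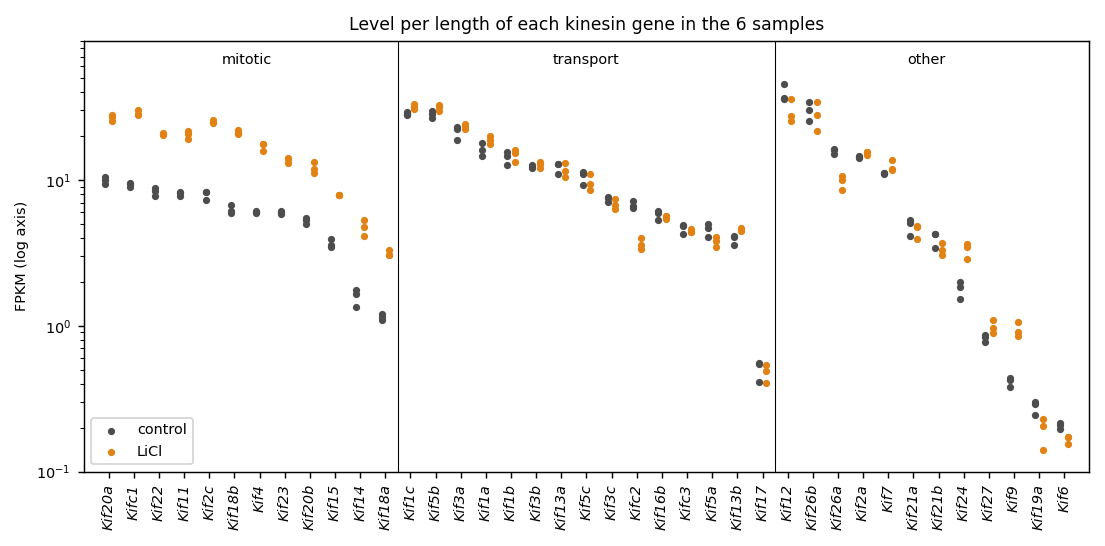
The plot shows the FPKM of each kinesin gene in the 3 control (grey) and 3 LiCl samples (orange) on a log axis, ordered within each class by the control level. The grey and orange points are apart for all 12 mitotic kinesins. On the CPM scale used in the text, the groups overlap for 11 of the 15 transport kinesins. Kif5b is among these, although its plotted FPKM do not overlap (26.4 to 29.5 in controls, 29.6 to 32.6 after LiCl). The share of all genes tested whose groups do not overlap was not counted.

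The make-up of the kinesin transcript pool shifted in every LiCl sample. Summed over the 39 genes, the FPKM were 380, 361 and 378 in controls and 477, 505 and 495 after LiCl. The mitotic kinesins took 18.6%, 20.4% and 20.1% of this sum in controls and 41.5%, 40.4% and 40.7% after LiCl. The summed FPKM of the transport kinesins were 184, 165 and 182 in controls and 173, 189 and 187 after LiCl, so these overlapped, and the transport share went from between 45.8% and 48.4% to between 36.2% and 37.8%. Since the shares add up to the whole, a larger mitotic share by itself makes the other shares smaller. The summed FPKM of the other kinesins were also lower, with 126, 122 and 121 in controls and 107, 112 and 106 after LiCl. This difference was not tested.

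**Figure D4:**
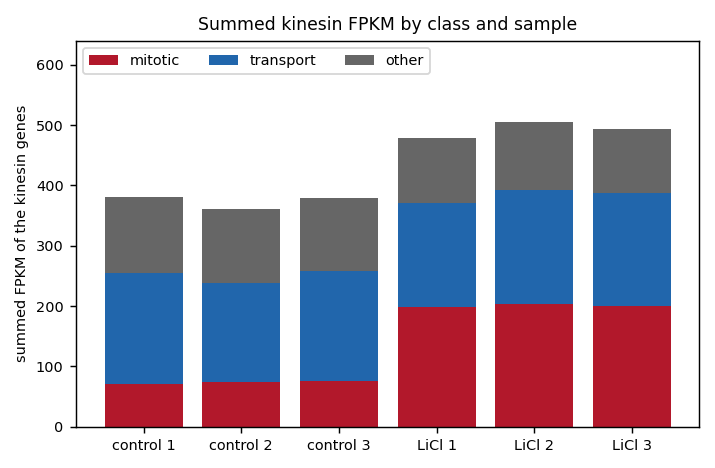
Stacked bars show the summed FPKM of the mitotic, transport and other kinesins in each of the 6 samples. The mitotic part is 70.6 to 75.9 FPKM in controls and 198 to 204 FPKM after LiCl, and the transport part is 165 to 184 and 173 to 189 FPKM. The part of the other kinesins is 121 to 126 and 106 to 112 FPKM.

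Transport kinesins as a class stayed near their control level. At an adjusted p under 0.05 alone, 2 of 15 were higher (against 21.1% of all genes tested) and 2 of 15 were lower (against 22.4%), so both shares were below those of the tested genes. Kifc2 (ENSMUSG00000004187), a kinesin-14 motor best known from axons and dendrites of neurons, was the transport kinesin with the largest difference. It had 25.6, 28.2 and 26.1 CPM in controls and 15.7, 13.2 and 14 CPM after LiCl. All LiCl values were below all control values, the log2 fold change was -0.90 (SE 0.08, edgeR adjusted p = 3.9e-05), and it moved past -1 (-1.01) when LiCl 1 and LiCl 3 were left out, which keeps 1 LiCl sample. Cyhr1, a gene on the opposite strand whose exons overlap those of Kifc2, had a log2 fold change of -0.11 (edgeR adjusted p = 0.067), and the strand setting of the counting is not given in the sources used here.

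Of the 3 kinesin-1 heavy chains, which carry many cargoes towards the plus end, Kif5a passed as lower and Kif5b and Kif5c did not pass, and the differences between their log2 fold changes were not tested. Kif5a, the neuronal heavy chain, was measured at 33.1, 28.5 and 35.0 CPM in controls and at 24.2, 28.3 and 26.8 CPM after LiCl (log2 fold change -0.29, SE 0.09, edgeR adjusted p = 0.028). The highest LiCl value of Kif5a lay just under the lowest control value, and the pass was lost in 9 of 18 alternative fits, 4 of them among the 6 that left out 1 sample (edgeR adjusted p up to 0.113). The ubiquitous Kif5b had 240, 212 and 229 CPM and then 236, 252 and 259 CPM, with overlapping groups, and its log2 fold change of 0.13 did not pass (edgeR adjusted p = 0.092, 95% interval 0.003 to 0.27). Kif5c gave -0.15 (edgeR adjusted p = 0.27, 95% interval -0.38 to 0.08). Of the neuronal and glial marker list, 3 of 12 genes (Stmn2, Prph and Nefl) fell at an adjusted p under 0.05, beside 22.4% of all genes tested, and none rose. The summed level of the list overlapped between the groups, with 454 to 544 CPM in controls and 376 to 511 CPM after LiCl. The part of these cells in the values of Kifc2 and Kif5a was not tested. The most abundant of these markers, Nefm, had a log2 fold change of -0.04 and Nefl one of -0.36 (edgeR adjusted p = 0.79 and 0.023).

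Among the kinesin-3 motors, Kif1c and Kif13b passed as slightly higher, by a margin that depended on the fit. Kif1c, which moves vesicles and RNAs, had 210, 205 and 213 CPM in controls and 222, 229 and 239 CPM after LiCl. Kif13b, a motor for membrane receptors and scaffold proteins, had 54.6, 47.2 and 53.2 CPM and then 57.7, 61.4 and 58.4 CPM. The groups did not overlap for either gene, and the log2 fold changes of 0.14 (SE 0.05) and 0.20 (SE 0.06) passed narrowly (edgeR adjusted p = 0.033 for each). The pass of Kif1c was lost in 8 of 18 alternative fits, 5 of them among the 6 edgeR fits that left out 1 sample (adjusted p up to 0.129), and that of Kif13b in 11 of 18, 4 of them among those 6 (up to 0.0943). Kif1a, the motor of synaptic vesicle precursors, gave 0.20 (edgeR adjusted p = 0.067) with overlapping groups. Kif1b (0.05), which carries mitochondria and vesicles, Kif13a (-0.08), a motor of endosomes, and Kif16b (-0.08), a motor of early endosomes, did not pass either. The 95% intervals of Kif1b, Kif13a and Kif16b lay between -0.29 and 0.26, so differences as large as those of the mitotic class lay outside them.

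The kinesin-2 motors, which drive anterograde transport in cilia, were close to their control levels. Kif3a had 82.3, 68.0 and 82.9 CPM in controls and 79.4, 83.7 and 85.7 CPM after LiCl, and Kif3b had 70.4, 67.7 and 72.5 CPM and then 68.2, 72.4 and 74.2 CPM. Both sets of samples overlapped, and the 95% intervals of the log2 fold change were -0.08 to 0.27 for Kif3a and -0.09 to 0.15 for Kif3b (edgeR adjusted p = 0.35 and 0.69). Kif3c gave -0.13 (edgeR adjusted p = 0.15) and the low-level Kif17, a ciliary and dendritic motor, gave -0.09 with the wide interval -0.54 to 0.35 (edgeR adjusted p = 0.73). The third subunit of the Kif3a-Kif3b motor, Kifap3, was lower after LiCl. It had 134, 132 and 137 CPM in controls and 106, 107 and 99.9 CPM after LiCl (log2 fold change -0.36, SE 0.05, edgeR adjusted p = 0.00032). The remaining transport kinesin, Kifc3, a minus-end-directed motor at cell junctions, gave -0.07 (edgeR adjusted p = 0.45).

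Among the other kinesins, Kif9 and Kif24 rose and Kif26a and Kif12 fell at an adjusted p under 0.05, and 8 of 12 passed in neither direction. These 2 of 12 in each direction stand beside 21.1% higher and 22.4% lower among all genes tested. Kif9 (ENSMUSG00000032489), a motor of motile cilia, was scarce, with 1.67, 1.84 and 1.89 CPM in controls and 3.64, 4.55 and 3.87 CPM after LiCl. Kif24 (ENSMUSG00000028438), which acts at the mother centriole and restrains the growth of cilia, had 16.3, 12.3 and 14.9 CPM and then 23.1, 27.8 and 29.1 CPM. For both genes all LiCl samples exceeded all controls, with log2 fold changes of 1.15 (SE 0.16, edgeR adjusted p = 0.0005) for Kif9 and 0.88 (SE 0.12, edgeR adjusted p = 0.0004) for Kif24. The call of Kif9 was lost with limma on log2(FPKM + 1), where its log2 difference was 0.45, and with glmTreat. The summed level of 15 genes of motile cilia went from between 24.5 and 26.0 CPM to between 32.4 and 36.9 CPM. Of the 9 that were tested, 3 rose at an adjusted p under 0.05 (Enkur, 3.63, Ccdc39, 0.54, and Ccdc40, 0.41, on the log2 fold change scale) and Foxj1, the master regulator of motile cilia, fell by 0.98. The axonemal genes Hydin, Dnah5 and Rsph4a had too few counts to be tested. The part of this list in the value of Kif9 was not tested.

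The closely related Kif26a and Kif26b, which lack an active motor, gave different values. Kif26a (ENSMUSG00000021294), known from the development of enteric neurons, had 113, 104 and 115 CPM in controls and 59.0, 73.7 and 69.2 CPM after LiCl, without overlap (log2 fold change -0.72, SE 0.08, edgeR adjusted p = 0.00013). Kif26b had 515, 377 and 449 CPM and then 318, 500 and 407 CPM, so both groups covered nearly the same range. Its log2 fold change was -0.13 with a 95% interval of -0.48 to 0.22 (edgeR adjusted p = 0.53). The log2 ratio of Kif26b to Kif26a was 2.19, 1.85 and 1.96 in controls and 2.42, 2.75 and 2.55 after LiCl, and this difference was not tested. Kif12 (ENSMUSG00000028357), known from tubular epithelia of the kidney, had 127, 154 and 123 CPM in controls and 122, 86.2 and 92.6 CPM after LiCl. LiCl 1 lay only just under the lowest control, and the log2 fold change of -0.43 (SE 0.13) passed at an edgeR adjusted p of 0.025. That pass was lost in 7 of 18 alternative fits, among them DESeq2, limma on FPKM and 3 of the 6 that left out 1 sample (edgeR adjusted p up to 0.0936). Over the ureteric epithelium markers, 10 of 12 fell and 1 rose (Epcam) at an adjusted p under 0.05. Among all genes tested, 22.4% fell and 21.1% rose at this threshold. Upk1b, Foxa1, Upk3a and Krt19 were called lower, as were 4.59% of all genes tested. The summed level of the markers went from between 1171 and 1493 CPM to between 871 and 915 CPM. The part of these markers in the value of Kif12 was not tested.

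The remaining other kinesins gave no pass. Kif7, which works at the tip of the primary cilium in hedgehog signaling, had a log2 fold change of 0.14 (edgeR adjusted p = 0.11, 95% interval -0.004 to 0.28), and its relative Kif27 one of 0.24 (edgeR adjusted p = 0.17). The overlapping gene on the opposite strand from Kif7, Ticrr, rose by a log2 fold change of 1.23 (edgeR adjusted p = 7.6e-07), and the part of its reads in Kif7 was not tested. Kif2a, the kinesin-13 relative of Kif2c with roles in neurons as well as at spindle poles, gave 0.08 with the narrow interval -0.02 to 0.18 (edgeR adjusted p = 0.19). Kif21a and Kif21b, which restrain microtubule growth, gave -0.12 and -0.27 (edgeR adjusted p = 0.42 and 0.054). Kif6 (-0.34) and Kif19a (-0.56), both linked to motile cilia, had at most 1.32 CPM in any sample and did not pass (edgeR adjusted p = 0.23 and 0.12), and the 95% interval of Kif19a ran from -1.15 to 0.04.

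Close relatives with different roles parted. The log2 ratio of Kif2c to Kif2a in CPM was -1.53, -1.35 and -1.33 in controls and 0.23, 0.11 and 0.12 after LiCl. For the kinesin-14 pair, the log2 ratio of Kifc1 to Kifc2 was 0.27, 0.18 and 0.32 in controls and 2.68, 2.80 and 2.75 after LiCl. The difference between the log2 fold changes was 1.57 for the first pair and 2.52 for the second. The cytokinesis motors of the kinesin-6 group, in contrast, lay within 0.23 of each other on the log2 fold change scale (Kif20a, Kif20b and Kif23). The families are known ones, but in each the members with the highest and the lowest log2 fold change were set against each other. In kinesin-14 this left out Kifc3 (-0.07), and for any family it shows the widest gap. The differences within the families were not tested.

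Most genes in a list of spindle partners of the mitotic kinesins were higher too. The list was chosen with earlier results of these data known, so it is no independent support. Of 20 spindle partners, 16 were called higher and 0 lower, against 2.74% and 4.59% of all genes tested. Their median log2 fold change was 1.30. Aurka (1.73) and Tacc3 (1.67), which act on spindle poles and their microtubules, had the highest values, and Tpx2 (1.29) and Hmmr (1.11) act there too. Prc1 (1.49), the antiparallel bundler that Kif4 binds, and the kinetochore motor Cenpe (1.49), itself a kinesin, were close to Kif4. The genes of the chromosomal passenger complex, which Kif20a relocates, were higher too, with Cdca8 (1.42), Birc5 (1.35), Aurkb (1.20) and Incenp (1.14). Ect2 (1.396), Anln (1.41) and Cit (1.08) serve cytokinesis, Plk1 (1.31) and Bub1b (1.32) are kinases of mitotic progression and its checkpoint, and Nusap1 (1.19) bundles spindle microtubules. The other 4 were Racgap1 (0.98), the partner of Kif23 in centralspindlin, and Ckap5 (0.59), which passed at an adjusted p under 0.05, and Mapre1 (0.02) and Numa1 (-0.09), which did not. Of 20 S phase genes, 1 was called higher (Cdt1, a replication licensing factor, 1.09), beside 2.74% of all genes tested. At an adjusted p under 0.05, 16 of these 20 genes were higher (21.1% of all genes tested were) and none was lower. Their median was 0.495 on the log2 scale, and the difference between this median and those of the spindle partners and mitotic kinesins was not tested.

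In the 3 lists of partners of the transport kinesins and of dynein, no gene was called, and at an adjusted p under 0.05 the counts below stand beside 21.1% higher and 22.4% lower among all genes tested. Of 19 kinesin light chains and cargo adaptors, 3 rose (Rhot2, Madd and Mapk8ip3) and 3 fell (Klc3, Kifap3 and Klc4) at an adjusted p under 0.05, and the median log2 fold change was -0.0007. The highest values belonged to the mitochondrial GTPase Rhot2 (0.38) and to Madd (0.36), an adaptor of Kif1 motors, and the lowest to Klc3 (-0.47), a light chain, and Kifap3 (-0.36). Of 20 dynein and dynactin genes, which make up the minus-end-directed counterpart, 5 rose (Nde1, Dctn6, Ndel1, Dctn4 and Dync1li2) and 2 fell, and the median was 0.03. Nde1 (0.73), a dynein regulator with a role in mitosis, and the dynactin gene Dctn6 (0.25) were highest, and the light chain Dynlt3 (-0.48) and the intermediate chain Dync1i2 (-0.19) were lowest. Of 20 genes of intraflagellar transport, the cargo machinery of the kinesin-2 motors, 5 rose (Ift80, Ift172, Ift88, Wdr35 and Ift27) and 3 fell (Ift20, Dync2li1 and Ift140), and the median was 0.02. Ift80 (0.84) and Ift172 (0.48) were highest, and Ift20 (-0.32) and Dync2li1 (-0.30) lowest.

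**Figure D5:**
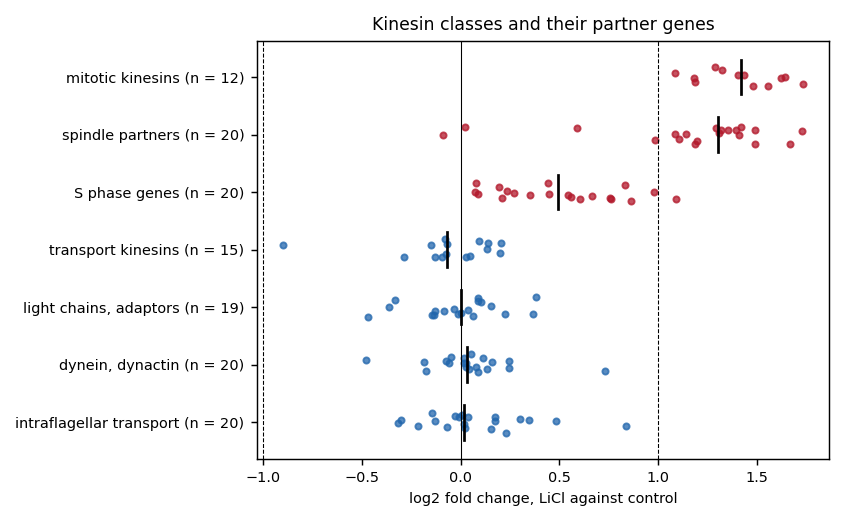
Each point is the log2 fold change (LiCl against control) of a gene in the mitotic and transport kinesin classes and in 5 lists of partner genes, with the median of each list as a black bar and dashed lines at -1 and 1. The medians are 1.42 for the mitotic kinesins, 1.30 for spindle partners and 0.495 for S phase genes, and lie between -0.07 and 0.03 for the transport kinesins and the other 3 lists.

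Total counts per sample lay between 28473436 and 31266945. The ureteric markers were present in all samples, with Krt8, Cdh1, Pdgfra and Ptch1 among the highest. Among all genes tested, 21.1% were higher and 22.4% lower at an adjusted p under 0.05. At both thresholds, 2.74% were called higher and 4.59% lower. The marker counts below stand beside these shares. At an adjusted p under 0.05, mesenchyme markers fell in 7 of 12 cases and none rose. Macrophage markers fell in 5 of 8 (Fcgr1 and Cx3cr1 being called lower), Adgre1 rose (log2 fold change 0.58) and the most abundant, Csf1r, had 0.02. Endothelial markers fell in 1 of 8 (Tek, called lower), with Kdr at -0.30 and Cdh5 at -0.20 not passing. Of 6 tested erythroid markers, Hba-a1 and Hbb-bh1 rose and Hbb-y, the most abundant, had 0.45 without a pass. Skeletal muscle transcripts were summed at 8.0 to 10.2 CPM in controls and at 38.4, 9.45 and 78.0 CPM in LiCl 1, 2 and 3, with 6 of 8 tested genes called higher (Myh3, Myog, Mybpc1, Actn2, Smyd1 and Mylpf) and Ttn not passing (0.68), so LiCl 1 and LiCl 3 held more of them than any control and LiCl 2 did not. Without LiCl 1 and LiCl 3, which keeps 1 LiCl sample, the median log2 fold change of the mitotic kinesins was 1.504. That of the transport kinesins was then 0.09 instead of -0.07. Long transcripts were a little lower in control 2 and LiCl 1 than in the other samples of their group, the median log2 deviation in the longest of 6 equal groups of tested genes being -0.08 and -0.04, and 13 of the 39 kinesins belong to that group. Of the transport kinesins, 12 of 15 had their lowest control value in control 2 and 12 of 15 their lowest LiCl value in LiCl 1. Without these 2 samples the medians were 1.48 for the mitotic, -0.03 for the transport and -0.10 for the other kinesins, and the 12 mitotic kinesins were called.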

How the data were processed

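RNA-Seq of E12.5 mouse ureter explants cultured with 15 mM LiCl or water was analysed, 3 samples per group as given by the sample labels. The authors deposited raw counts per gene and FPKM values. According to the study's methods, HISAT2 placed the filtered reads on GRCm39 and featureCounts counted them, whereas the submitters' processing notes name fastp 0.23, STAR 2.7, featureCounts 2.0 and DESeq2 1.40. The annotation release, the strand setting of the counting and the making of the deposited FPKM values are not given in the sources used here. Total counts per sample were 28473436 to 31266945, and counting error is smallest for the abundant members and largest for Kif6, Kif9, Kif17 and Kif19a. No column was left unused.

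Identifiers were matched to symbols with GENCODE vM21 (GRCm38), which named 52073 of 56748. Of 226 symbols in the lists, 225 matched 1 identifier, 3 of them through an older symbol, and Jakmip1 was left out. Overlapping exons were taken from the same annotation. After filterByExpr and TMM scaling, edgeR 4.0.16 (R 4.3.3) fitted the counts and its quasi-likelihood test gave p-values, adjusted after Benjamini and Hochberg for all genes tested. A call needed both thresholds of the study's methods (adjusted p 0.05, log2 fold change 1 in either direction). The F statistic and the coefficient together gave standard errors and 95% intervals. Alternatives used limma 3.58.1 on log2(FPKM + 1) and log2(FPKM + 0.1), with a minimum mean FPKM of 0.5 or none, and DESeq2 1.42.0 on the counts, and further normalizations, filters, a replicate block and left-out samples. The scripts were tested on simulated counts. Between replicates, chi-square per degree of freedom was 5.93 to 14.5, above sampling noise, so none was a copy of another.

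The members, their classes and the lists of partners and markers were chosen with earlier results of these data known. All 39 members were named, of each partner list the called genes or otherwise the 2 highest and the 2 lowest, and of each marker list the 2 most abundant and any called. Genes named beyond this rule were chosen after their values were seen. Promoters were taken from RefSeq (GRCm38.p6), and protein sequences were not used here.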

Additional observations from a re-analysis of the deposited data

How the results depend on the processing

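The 12 mitotic kinesins were called higher with DESeq2, with RLE size factors or library size as the scaling, with both other count filters or none, with limma on log2(FPKM + 0.1), with the replicate block and without any one replicate, and 10 of them with limma on log2(FPKM + 1) (with or without the filter) and with glmTreat. With wider classes (Kif2a and Kif24 added to the mitotic, Kif21a and Kif21b to the transport kinesins), 12 of 14 and 0 of 17 were called. The mitotic median log2 fold change was 1.23 with limma on log2(FPKM + 1), and its excess over the transport median was 1.23 with and 1.25 without the filter on low FPKM, a scale that shrinks the change of low genes. At an adjusted p under 0.05 alone, 2 transport kinesins were higher and 2 lower, as were 2 and 2 other kinesins. The call of Kif9 was lost with limma on log2(FPKM + 1), with or without the filter, and with glmTreat, leaving 0 other kinesins called. Without LiCl replicates 1 and 3, 1 transport kinesin was called lower (Kifc2), and the medians of transport and other kinesins were 0.0874 and 0.0319, which turned their sign (1 LiCl sample was then left, and the cause was not tested). Over the fits that left out 1 replicate, the medians were 1.38 to 1.45 for mitotic, -0.08 to 0.01 for transport and -0.23 to 0.0006 for other kinesins, the transport median lying above 0 without LiCl 1 or without LiCl 3 and the other median without LiCl 1. Leaving out control 2 and LiCl 1 together was chosen after seeing the data.

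Over 735 values of single kinesins under these alternatives, 9 calls were lost (Kif9, Kif15, Kif18a and Kif20b), 1 was gained (Kifc2), 11 values without a call changed sign and no called value did. The adjusted p rose to 0.05 or more in 8 of 18 fits for Kif1c, 11 for Kif13b, 9 for Kif5a and 7 for Kif12, and in none for the other 16 kinesins that passed (glmTreat aside). Over all genes, 498 were called higher and 835 lower, against 177 and 141 with limma on log2(FPKM + 1), 171 and 139 without its filter, 347 and 430 with limma on log2(FPKM + 0.1), 172 and 162 with glmTreat and 3844 and 4071 at an adjusted p under 0.05 alone. The deviations of samples with the same replicate number correlated at 0.0068, -0.1417 and 0.1179. Samples with different numbers were not correlated, so these values cannot decide whether the numbers pair the samples. With the replicate block, 478 genes were called higher and 801 lower, with the mitotic median at 1.42. For members under 5 CPM, depth limits the precision.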

Other observations

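Kinesin genes outside the 39 were also measured. Cenpe, the kinetochore kinesin, had 1832, 1855 and 2076 counts in controls and 4963, 5416 and 5167 counts after LiCl, and Kifc5b, the near-copy of Kifc1, had 392, 419 and 430 counts and then 1654, 1299 and 1294 counts. Kif28 had 3, 3 and 2 counts in controls and 5, 1 and 0 counts after LiCl, and Kif2b, a kinesin-13 of the testis, had 0 counts in all 6 samples. The processed pseudogenes Kif4-ps and Kif22-ps had 0 counts in all samples as well.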
